A study of Homo sapiens with 6 samples.

Results

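Histones are the proteins that DNA is wound around, and the transcripts of 69 histone genes were examined here in T3M4 cells with and without a guide RNA against METTL13. The members are the rows of the authors' deposited table, 69 of 16617 genes, whose symbol begins with HIST1H, HIST2H, HIST3H or HIST4H (61 replication-dependent genes, among them HIST2H3PS2, a pseudogene by its symbol) or is one of 8 variant histone genes (H1F0, H1FX, H2AFY, H2AFZ, H2AFV, H2AFJ, H3F3A and H3F3B). T3M4 is an established human pancreatic ductal adenocarcinoma line. One group received a control guide (sgControl, 3 libraries, genotype WT in the labels) and the other a guide against METTL13 (sgMETTL13, 3 libraries, genotype METTL13 knockdown). METTL13 methylates eEF1A, the factor that brings aminoacyl-tRNAs to the ribosome. Both groups were grown in DMEM with fetal bovine serum, and the labels do not say whether the libraries of a group came from separate cultures, so the p-values may measure technical spread only. The delivery of the guide, and whether the cells were a pool or a clone, were not given in the sources used here.

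Replication-dependent histone genes are switched on in S phase and supply the bulk of the histones for new DNA. Their mRNAs are unlike others: they usually carry no introns and no poly(A) tail, and end just after a conserved stem-loop that the protein SLBP binds. Variant histone genes are expressed through the cell cycle and give ordinary polyadenylated mRNAs. They include the H3 genes H3F3A and H3F3B, whose shared protein replaces H3 outside replication, H2AFZ and H2AFV (H2A.Z), H2AFY (macroH2A), and the linker histones H1F0 and H1FX. How RNA was selected for these libraries, by its poly(A) tail or otherwise, was not given in the sources used here, and its part in the levels given here was not tested.

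The stem-loop is what sets the replication-dependent mRNAs apart, so it is shown for 5 abundant members, in capitals with 5 bases on each side, from GENCODE 29 transcripts (GRCh38).
HIST1H2AC: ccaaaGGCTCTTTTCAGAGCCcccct
HIST2H2AA3: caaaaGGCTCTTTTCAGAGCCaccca
HIST2H2BE: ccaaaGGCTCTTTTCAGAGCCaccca
HIST1H2BD: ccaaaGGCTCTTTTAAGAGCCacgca
HIST2H4A: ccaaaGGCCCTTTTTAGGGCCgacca
The capitals lie at chr6:26124669-26124684 (HIST1H2AC, plus strand), chr1:149842223-149842238 (HIST2H2AA3, minus), chr1:149886188-149886203 (HIST2H2BE, minus), chr6:26158587-26158602 (HIST1H2BD, plus) and chr1:149833032-149833047 (HIST2H4A, plus), each in an exon and in the 3′ UTR, between 35 and 67 bases past the stop codon. All 5 have a stem that can pair around a loop of mostly T. The histone stem-loop motif was found on the transcript strand in 28 of the 61 replication-dependent members and in 0 of the 8 variant members. Of the other 16142 genes of the table with GENCODE transcripts, 14 (0.0867%) held it in any transcript. The sequence shown for HIST2H2BE was the commonest, in 17 of the 28 members. For 27 of the members without a match the GENCODE transcript is the coding sequence alone, so that the stretch where a stem-loop would lie is not in the annotation. Transcripts of 20 members ran over 100 bases past the stem-loop, and 16 of these genes had a transcript with a polyadenylation signal, AATAAA or its variant ATTAAA, in its last 50 bases. HIST2H2BE, for example, has 1729 annotated bases after the stem-loop in 1 exon.

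The METTL13 transcript itself, which checks the labels, went from 39.9 TPM (sgControl) to 5.63 TPM (sgMETTL13) per the authors' deposited table, and its log2 fold change was -2.78 (adjusted p = 2.5e-127). TPM is a level corrected for transcript length and scaled to a fixed total in each library. The ductal epithelial markers KRT19, KRT8, KRT18, KRT7 and EPCAM were all expressed, at 53.7 to 2107 TPM in sgControl. Of the 5, 0 passed the test, against 3.8% of all genes (0 at an unadjusted p under 0.05). Of the fibroblast and leukocyte markers, COL1A1 was at 14.0 TPM in sgControl and each of the other measured genes (COL1A2, DCN, LUM and LYZ) was under 3 TPM, while PTPRC and CD3E were not analysed here. The authors' deposited average reads summed to 15240866 (sgControl) and 15247500 (sgMETTL13). The table holds group averages and the authors' own comparison, so no value per library is analysed here and whether the libraries of the groups overlap cannot be given. For each gene an implied standard error (SE) was computed from the deposited log2 fold change and p-value, with an implied 95% interval.

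Histone transcripts were higher rather than lower in the sgMETTL13 cells wherever a change passed the test. In the authors' deposited table, an adjusted p under 0.05 was reached by 6 of the 69 members, all 6 higher, against 3.8% of all genes called in either direction and 2.73% called higher. They were HIST1H1C, HIST1H2AC, HIST1H2AD, HIST2H2AA3, HIST2H2AA4 and the variant gene H1FX. HIST2H2AA3 and HIST2H2AA4 have identical values in every column, so these are 5 separate measurements. None was called lower. At an unadjusted p under 0.05, 10 members were higher (7.65% of all genes) and 1, H3F3A, was lower (4.8%), per the authors' deposited table. At adjusted p thresholds of 0.01 and 0.1 there were 2 and 6 members higher, against 1.84% and 3.73% of genes. Among the 8309 genes with at least the median number of reads, with the adjustment made over them alone, 5 of 15 members were higher, against 6.72% of these genes. In bulk RNA, more cells expressing a histone gene and more of its RNA per cell cannot be told apart. None of the 6 calls held once a smooth trend of log2 fold change with transcript GC content and length was removed: 0 of 69 members were then called, against 2.71% of genes (1.65% higher and 1.06% lower), with adjusted p between 0.0694 and 0.385 for the 6. The value stayed above 0 for each of them, at 0.28 to 0.84 on the log2 scale. With the length implied by the deposited values the count was also 0, against 1.56% of genes higher.

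HIST1H1C encodes a linker histone, which binds the DNA where it enters and leaves the nucleosome. Its level per the authors' deposited table was 55.8 TPM in sgControl and 74.1 TPM in sgMETTL13, from 282.67 and 380.33 reads. The log2 fold change was 0.48 (implied SE 0.124, adjusted p = 0.00482), or 1.40-fold. After removal of the GC and length trend it was 0.34 (adjusted p = 0.137). HIST1H1C is on the minus strand of chromosome 6, where GENCODE places its coding exon at 26055787 to 26056428. It gave 55.8 of the 58.2 TPM of its class in sgControl, and the other 5 replication-dependent H1 genes each averaged under 10 reads. Among those, HIST1H1D went from 7.67 to 4.33 reads, HIST1H1E stayed at 3 reads in both groups, and HIST1H1B, HIST1H1A and the testis gene HIST1H1T were at 1.33 reads or fewer per the authors' deposited table.

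**Figure D1:**
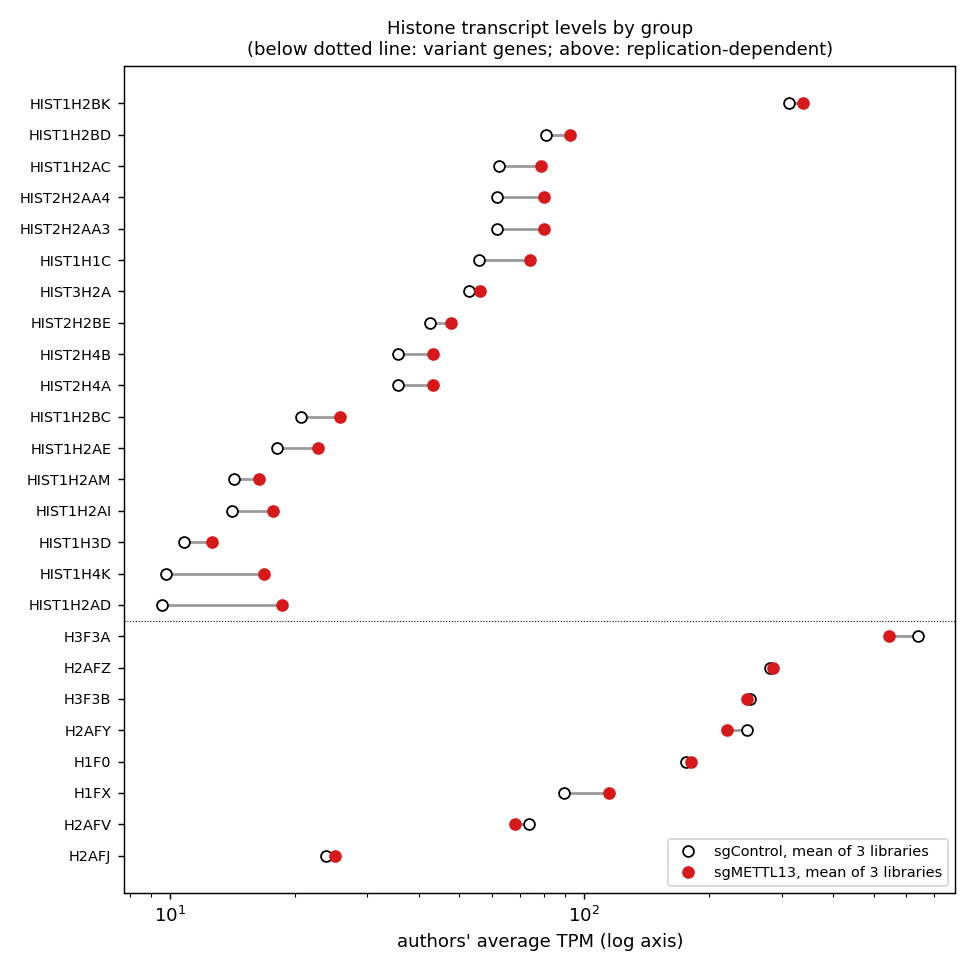
Authors' average TPM (log axis) of 25 histone genes in sgControl (open points) and sgMETTL13 (filled points), each the mean of 3 libraries, with no error given by the table. The filled point lies to the right of the open one for all 17 replication-dependent genes shown. Of these, HIST1H2AD was chosen for its call and HIST1H4K for its unadjusted p. Among the 8 variant genes it lies to the left for H3F3A, H3F3B, H2AFY and H2AFV.

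H2A, one of the 4 core histones, held the other replication-dependent calls. HIST1H2AC went from 62.2 to 78.7 TPM (224.67 to 287.67 reads) per the authors' deposited table. Its log2 fold change was 0.41 (implied SE 0.130, adjusted p = 0.0458), close to the threshold. Its GENCODE span is chr6:26124145-26139116 (plus strand), and its reads were whole numbers, a sign that they were not divided between genes. HIST2H2AA3 and HIST2H2AA4, a duplicated pair on chromosome 1 with identical coding sequences (minus strand, 149842188 to 149842736, and plus strand, 149851061 to 149851624), each went from 61.5 to 79.96 TPM. Their log2 fold change was 0.45 (implied SE 0.131, adjusted p = 0.0199) per the authors' deposited table, and reads from one copy cannot be told from those of the other. HIST2H2AA4 also overlaps HIST2H4B in RefSeq. Together they held 432.2 reads in sgControl and 569.7 in sgMETTL13.

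The largest called change was in HIST1H2AD, a less abundant H2A gene. In the authors' deposited table it went from 9.57 to 18.6 TPM, or from 31.90 to 62.80 reads, with a log2 fold change of 1.04 (implied SE 0.293, adjusted p = 0.0154). Its reads were not whole numbers. In RefSeq the span of HIST1H3D, an H3 gene, includes HIST1H2AD, and both have a start at one position, 223 bases from that of HIST1H2BF. For HIST1H3D the authors' deposited table gave a log2 fold change of 0.30 (adjusted p = 0.752). How reads were divided between the overlapping genes is uncertain, so their sum is the safer value: it went from 102.33 to 146.67 reads, a ratio of 1.43. Among the H2A genes 15 of 16 had a deposited log2 fold change above 0, with a median of 0.41, against 50.2% of all genes above 0. Of the 16, 4 were called higher, against 2.73% of all genes, among them the identical rows HIST2H2AA3 and HIST2H2AA4. After removal of the GC and length trend 0 of these 4 were called, with adjusted p between 0.0785 and 0.385. The exception was HIST2H2AC, at 25.80 reads in sgControl and 19.66 in sgMETTL13 per the authors' deposited table (log2 fold change -0.34, adjusted p = 0.929). The 3 less abundant H2A genes among the 15 with the most reads were also above 0 without a call: HIST1H2AE (18.1 to 22.8 TPM), HIST1H2AI (14.1 to 17.8 TPM) and HIST1H2AM (14.3 to 16.4 TPM), with adjusted p of 0.464, 0.749 and 0.877, per the authors' deposited table. HIST3H2A, from 52.7 to 56.1 TPM, stood at 0.16 on the log2 scale (implied 95% interval -0.15 to 0.48) per the authors' deposited table.

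H2B genes, whose product pairs with H2A, were the most abundant replication-dependent class and had 0 of 15 members called, a count that says little beside the 3.8% of all genes called. At an unadjusted p under 0.05 there were 3 higher and 0 lower per the authors' deposited table, against 7.65% and 4.8% of all genes. The 3 were those with the most reads. HIST1H2BK, at 313 TPM in sgControl and 337 in sgMETTL13, was the most abundant of all replication-dependent members. Its log2 fold change was 0.16 (implied 95% interval 0.035 to 0.29, adjusted p = 0.172) per the authors' deposited table. The gene overlaps an H4 gene, H4C9, in RefSeq. It held 30.1% of the summed TPM of the 61 genes in sgControl. The next in level, HIST1H2BD, went from 81.1 to 92.5 TPM in the authors' deposited table (log2 fold change 0.26, adjusted p = 0.148). HIST2H2BE went from 42.4 to 47.6 TPM in the authors' deposited table (log2 fold change 0.24, adjusted p = 0.143). The other 12 H2B genes averaged under 100 reads, and HIST1H2BG among them had the largest upward value, 0.65 on the log2 scale (implied 95% interval -0.017 to 1.31).

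**Figure D2:**
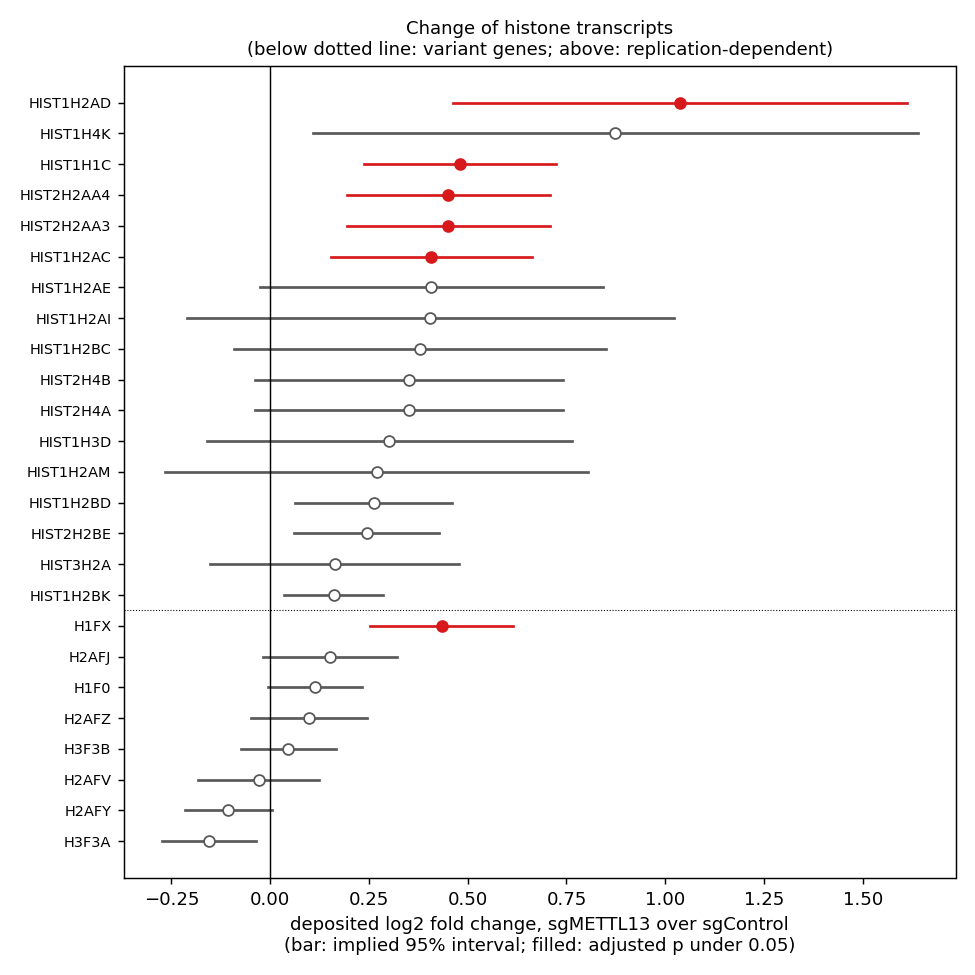
Deposited log2 fold change of sgMETTL13 over sgControl for the 25 genes, with the implied 95% interval as a bar; filled points have an adjusted p under 0.05. All 17 replication-dependent genes lie above 0 and 5 are filled. Of these 17, HIST1H2AD was chosen for its call and HIST1H4K for its unadjusted p. HIST1H4J, with the same coding sequence as HIST1H4K, is not drawn and was at -0.60. Of the variant genes H1FX at 0.43 is filled and the other 7 lie between -0.16 and 0.15.

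Replication-dependent H3 and H4 genes were scarce. With the pseudogene HIST2H3PS2 left out 0 of 23 were called, a count that says little beside the 3.8% of all genes called. At an unadjusted p under 0.05, 1 of the 23, HIST1H4K, was higher and 0 were lower, against 7.65% and 4.8% of all genes. HIST2H3PS2, counted apart from its class and cluster, was at 2.31 TPM in sgControl and 2.38 TPM in sgMETTL13 per the authors' deposited table (adjusted p = 0.968). The other 11 H3 genes summed to 40.4 TPM in sgControl and 47.1 TPM in sgMETTL13, and 9 of them had a deposited log2 fold change above 0 (median 0.30). The 12 H4 genes summed to 117 and 140 TPM, with 8 above 0 and a median of 0.38. HIST2H4A and HIST2H4B, another pair with identical coding sequences and identical values, held most of that, each going from 35.6 to 43.2 TPM in the authors' deposited table (log2 fold change 0.35, adjusted p = 0.508). HIST1H4K and HIST1H4J stood on opposite sides of 0: the deposited log2 fold change was 0.87 for HIST1H4K (unadjusted p = 0.0254, adjusted p = 0.272) and -0.60 for HIST1H4J (adjusted p = 0.714). Their coding sequences are identical and their reads were divided between genes, so the split is uncertain. Summed, the HIST1H4J and HIST1H4K reads were 50.33 in sgControl and 55 in sgMETTL13. In all, 20 of the 69 members had reads that were not whole over the 3 libraries of a group (tolerance 0.005), against 21.4% of all genes. A coding sequence at least 95% identical to that of another member was found for 10. Only members of the same class and equal coding length were compared, so 10 is a lower bound.

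Few reads lay behind most replication-dependent genes. The median member averaged 9.83 reads, against 205 for all genes, and 31 of the 61 were under 10 reads, where the median implied SE was 1.35. Of those 31, 20 had a log2 fold change above 0 per the authors' deposited table, against 51.3% of all genes under 10 reads. Of the 31, 0 were called (0 at an unadjusted p under 0.05), against 0.0252% of all genes under 10 reads called higher. Of the 30 members with at least 10 reads, 27 (90.0%) had a deposited log2 fold change above 0, against 49.8% of all genes at that depth. Their median was 0.33, against -0.0007 for those genes. The 3 below 0 were HIST1H4J, HIST2H2AC and HIST3H2BB. These 3 stayed below 0 after removal of the GC and length trend. By then HIST1H2BK (-0.027), HIST1H2AJ (-0.098), HIST2H3PS2 (-0.082) and the identical rows HIST2H3A and HIST2H3C (-0.11 each) were below 0 too. The rest at this depth stayed above 0. All 8 members with at least 100 reads were above 0, from 0.16 to 0.48, against 51.6% of genes at that depth. These counts take rows with identical values, such as HIST2H2AA3 and HIST2H2AA4, as separate members. On the ratio of average TPM, which lacks the scaling of the deposited comparison, these 8 were above 0 too; after removal of the GC and length trend HIST1H2BK went to -0.027. HIST1H4B was listed at 0 reads in sgControl and had 7 reads over the 3 libraries of sgMETTL13. That is 2.33 times a floor of 3 reads over the group, a chosen floor and not a tested difference. The deposited log2 fold change of HIST1H4B, 3.72 (implied SE 2.06, adjusted p = 0.483), did not pass the test. HIST1H4A and HIST1H1A were listed at 0 in sgMETTL13 and had 2 and 1 reads in sgControl.

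**Figure D3:**
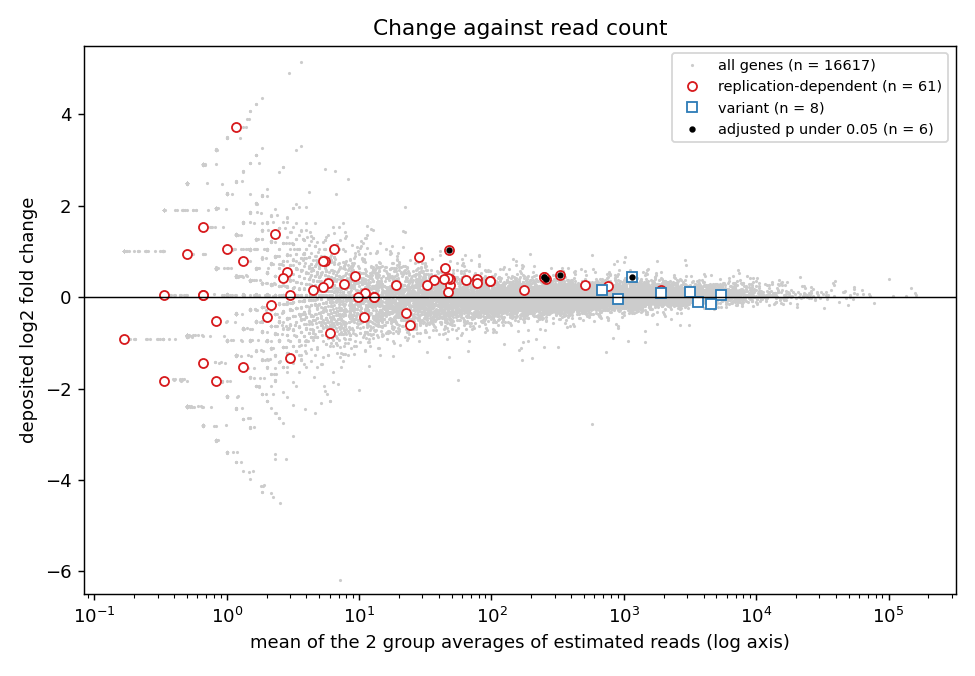
Deposited log2 fold change against the mean of the 2 group averages of estimated reads (log axis), for all 16617 genes (grey), the 61 replication-dependent genes (circles) and the 8 variant genes (squares); black centres mark the 6 with an adjusted p under 0.05. Below 10 reads the circles scatter to both sides of 0, and above 100 reads every circle lies above 0.

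Summed over the 61 genes, the replication-dependent level was 1040 TPM in sgControl and 1220 TPM in sgMETTL13, a ratio of 1.17. The sum of a group is a mean of its 3 libraries with no error given, so this ratio has no test. With HIST2H3PS2 left out, the sum was higher in each class: the ratio was 1.30 for H1, 1.25 for H2A, 1.11 for H2B, 1.17 for H3 and 1.203 for H4. The H1 ratio rested on HIST1H1C, which went from 55.8 to 74.1 TPM. Of the 6 H1 genes, 3 had a log2 fold change above 0 and 3 below, with a median of -0.36. Without HIST1H2BK the ratio of the whole was 1.21. The HIST1 genes on chromosome 6 gave a ratio of 1.17 over 46 genes, and the 11 HIST2 genes other than HIST2H3PS2 a ratio of 1.21.

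The 8 variant genes had a higher summed level than the 61 replication-dependent ones. They summed to 1781 TPM in sgControl and 1689 TPM in sgMETTL13, a ratio of 0.948. That ratio rested on H3F3A: without it the ratio was 1.00045. H3F3A was the most abundant member, at 639 TPM in sgControl and 546 TPM in sgMETTL13 per the authors' deposited table. Its log2 fold change was -0.16 (implied 95% interval -0.27 to -0.036, adjusted p = 0.158), which missed the threshold. H3F3B, which encodes the same protein, was at 251 and 247 TPM in the authors' deposited table, with a log2 fold change of 0.046 (implied 95% interval -0.075 to 0.17). On the log2 TPM ratio H3F3B was at -0.026, so its direction depends on the scaling. With HIST2H3PS2 left out, variant genes made up 95.7% of the members' H3 transcripts by summed TPM in sgControl and 94.4% in sgMETTL13. The part of RNA selection in this share was not tested.

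H1FX was the variant gene that passed the test. It encodes a replication-independent linker histone. In the authors' deposited table H1FX went from 89.7 to 115 TPM (994.33 to 1296.33 reads), with a log2 fold change of 0.43 (implied SE 0.0921, adjusted p = 0.000235), the smallest adjusted p among the 69. After removal of the GC and length trend the value was 0.28 (adjusted p = 0.0694), and with the length implied by the deposited values in place of the annotated one it was 0.28 (adjusted p = 0.0684). Its GENCODE span is chr3:129314771-129316277 (minus strand), in 1 exon, and it overlaps an antisense RNA gene in RefSeq. Whether the counting used strand was not given in the sources used here, so reads of the pair cannot be told apart. The other variant linker gene, H1F0, went from 176 to 181 TPM in the authors' deposited table (log2 fold change 0.11, implied 95% interval -0.0054 to 0.23, adjusted p = 0.450). The difference between H1FX and H1F0 was not tested.

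Of the 4 variant H2A genes 0 were called, a count that says little beside the 3.8% of all genes called (0 at an unadjusted p under 0.05). H2AFZ and H2AFV, which encode the 2 forms of H2A.Z, a variant found at promoters, were at 281 and 73.6 TPM in sgControl and 286 and 67.9 TPM in sgMETTL13 per the authors' deposited table. Their log2 fold changes were 0.098 and -0.029, with implied 95% intervals of -0.048 to 0.24 and -0.18 to 0.12. H2AFY, the macroH2A gene, went from 247 to 221 TPM in the authors' deposited table (log2 fold change -0.11, implied 95% interval -0.22 to 0.0043, adjusted p = 0.444). H2AFJ went from 23.8 to 25.1 TPM in the authors' deposited table (log2 fold change 0.15, implied 95% interval -0.018 to 0.32). By level the 8 genes ran H3F3A, H2AFZ, H3F3B, H2AFY, H1F0, H1FX, H2AFV and H2AFJ in sgControl. Without a spread over libraries the neighbours H2AFZ, H3F3B and H2AFY, between 247 and 281 TPM, cannot be put in order. Called higher were 1 of 8 variant members and 5 of 61 replication-dependent members, against 2.73% of all genes, and 0 of either once the GC and length trend was taken out (1.65% of genes). The median log2 fold change was 0.072 for the variant and 0.27 for the replication-dependent genes, and 0.0014 for all genes.

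**Figure D4:**
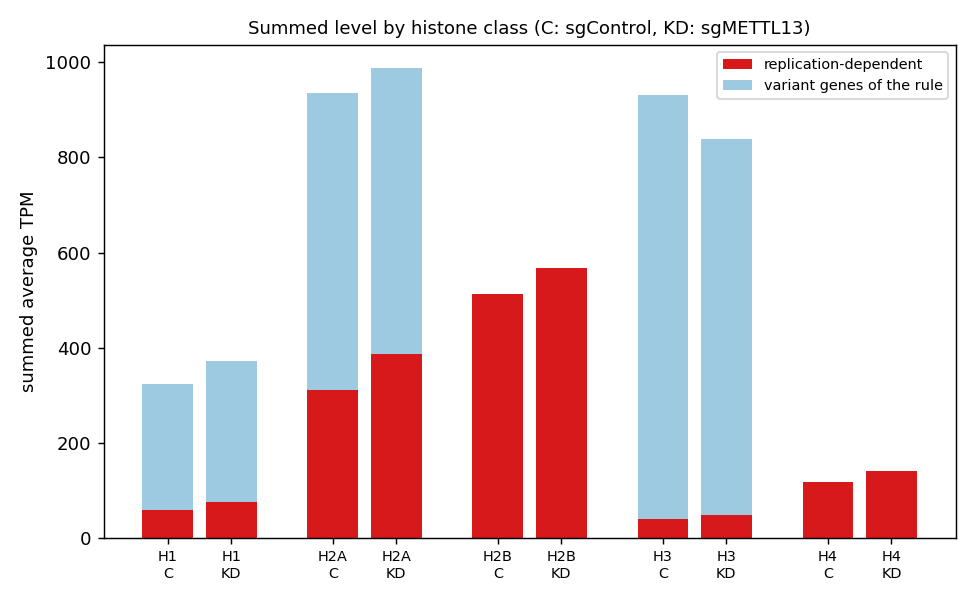
Summed average TPM of replication-dependent (red) and variant (blue) genes by histone class in sgControl (C) and sgMETTL13 (KD), without the pseudogene HIST2H3PS2; no error is given by the table. Variant genes make up 95.7% of the sgControl bar for H3, 66.8% of that for H2A and 82.0% of that for H1. Only variant genes of the rule are drawn, so H2AFX (398 TPM in sgControl) is not in the H2A bars. The red parts are taller in sgMETTL13 in all 5 classes.

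The length used to scale each gene's reads also differed within the replication-dependent group. A length was computed from the deposited reads and FPKM (fragments scaled by transcript length and library size), as an estimate of the length behind the deposited values. This length does not show which transcript the cells made. It can fall below the coding length, as for HIST1H4K (270 against 312 nt). The pseudogene HIST2H3PS2 had 2544 nt and is left out of the next counts. For 50 of the other 54 core genes it was at most 500 nt. The remaining 4 were HIST2H2BE (2142 nt), HIST1H3D (837 nt), HIST1H2BK (747 nt) and HIST1H2BD (741 nt). These 4 held 43.0% of the TPM of the replication-dependent genes in sgControl and 59.3% of their reads. The 8 variant genes had implied lengths of 865 nt (H2AFZ) to 3591 nt (H2AFJ). Among the 4 long core genes, 0 were called per the authors' deposited table, against 3.8% of all genes. Of the 4, 3 were higher at an unadjusted p under 0.05, against 7.65% of all genes. The log2 fold changes of the 4 lay between 0.16 and 0.30.

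**Figure D5:**
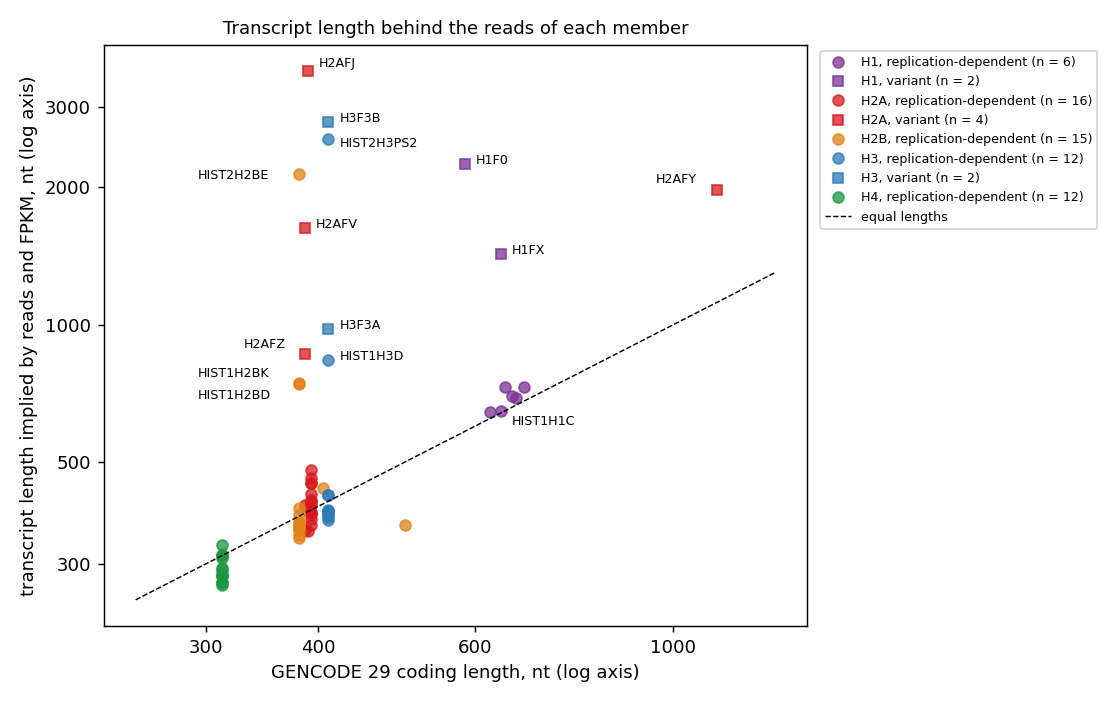
Length implied by the deposited reads and FPKM against the GENCODE 29 coding length (both log axes, nt) for the 69 members. The implied length is not that of a measured transcript. Colours mark the class, with circles for replication-dependent and squares for variant genes. Most circles lie near the line of equal lengths, while HIST2H2BE, HIST1H3D, HIST1H2BK, HIST1H2BD and HIST2H3PS2 lie among the variant genes.

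Some promoter motifs differ between classes of histone gene. Promoters of the called genes HIST1H2AC, HIST1H1C and H1FX are given as the 250 bases before the start (RefSeq, GRCh38.p14). Capitals mark matches on either strand to the TATA box (searched as TATAAA) and the CCAAT box (searched as CCAAT). They also mark the octamer (searched as ATTTGCAT) and the H1 box (searched as AAACACA).
HIST1H2AC: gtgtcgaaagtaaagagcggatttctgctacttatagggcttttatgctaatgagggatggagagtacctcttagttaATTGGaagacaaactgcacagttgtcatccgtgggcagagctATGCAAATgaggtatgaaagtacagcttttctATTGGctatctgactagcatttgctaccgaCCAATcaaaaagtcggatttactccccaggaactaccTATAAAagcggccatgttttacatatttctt
HIST1H1C: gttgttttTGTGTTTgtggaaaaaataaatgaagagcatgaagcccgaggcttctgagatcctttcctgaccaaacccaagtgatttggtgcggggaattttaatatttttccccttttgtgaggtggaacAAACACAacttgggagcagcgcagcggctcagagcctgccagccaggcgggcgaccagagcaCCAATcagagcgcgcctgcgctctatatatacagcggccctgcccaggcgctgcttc
H1FX: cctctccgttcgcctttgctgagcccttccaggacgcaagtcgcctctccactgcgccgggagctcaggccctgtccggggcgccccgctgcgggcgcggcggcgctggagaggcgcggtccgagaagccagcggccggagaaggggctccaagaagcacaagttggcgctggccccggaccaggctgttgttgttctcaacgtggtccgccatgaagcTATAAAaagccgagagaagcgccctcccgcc
They lie at chr6:26123922-26124171 (plus strand), chr6:26056471-26056720 (minus) and chr3:129316287-129316536 (minus). In the window from 250 bases before to 50 after the start, the octamer was found in 11 of 15 H2B and 10 of 15 H2A genes with a promoter in the RefSeq windows, against 2.19% of 27305 genes. The H1 box was found in 6 of 6 replication-dependent H1 genes, against 6.94% of genes. It was also in 2 of 10 H3, 1 of 15 H2A, 0 of 15 H2B and 0 of 10 H4 genes. CCAAT was present in 47 of 56 replication-dependent genes with a promoter (39.7% of all genes), and missing from 9 of the 10 H4 genes. TATAAA was present in 39 of 56 (14.0% of all genes). Of the 7 variant genes with a promoter, 6 held CCAAT and 3 held TATAAA, so CCAAT did not set the 2 kinds apart. The octamer and the H1 box were each in 1 of the 7. The 4 motifs do not overlap in the windows shown, and a match is a description of letters, not of binding.

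H2A and H2B genes are often arranged head to head, and the window shown for HIST1H2AC reaches the start of HIST1H2BC, 246 bases away. The authors' deposited table gave 0.41 for HIST1H2AC and 0.38 for HIST1H2BC on the log2 scale, though HIST1H2BC, from 57.33 to 72 reads, was not called (adjusted p = 0.598). HIST1H2AE and HIST1H2BG, 233 bases apart, had 0.41 and 0.65 per the authors' deposited table, with neither called. HIST2H2BE was at 42.4 TPM in sgControl (706.29 reads) and HIST2H2AC, 236 bases away, at 9.31 TPM (25.80 reads) per the authors' deposited table. Their log2 fold changes were 0.24 and -0.34 per the authors' deposited table, with an implied 95% interval of -1.15 to 0.48 for HIST2H2AC.

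No factor examined for making or handling histone mRNA and protein was called, which says little beside the 3.8% of all genes called. Of 17 genes for histone gene transcription and for processing and decay of the mRNA, 0 were called per the authors' deposited table. At an unadjusted p under 0.05, 1 of the 17, the endonuclease gene CPSF3 (-0.22), was lower, against 4.8% of all genes. The median log2 fold change of the 17 was -0.0099. SLBP, which binds the stem-loop, was at 0.043 and the transcriptional coactivator NPAT at -0.089 per the authors' deposited table, with 1258 and 524.33 reads in sgControl. CASP8AP2 (-0.26) and LSM11 (-0.23), parts of the same machinery, did not pass. Of 29 chaperones and deposition factors 0 were called, against 3.8% of all genes, and the median log2 fold change was -0.046. At an unadjusted p under 0.05, 1 of the 29 was higher and 5 were lower, against 7.65% and 4.8% of all genes. The lowest p among them was that of CHAF1B, a subunit of the CAF-1 complex that loads histones behind the replication fork, at -0.35 (adjusted p = 0.103) per the authors' deposited table. VPS72, which helps to place H2A.Z, was the 1 that was higher, at 0.19 (adjusted p = 0.170), and ANP32E, which removes H2A.Z, was at -0.23 (adjusted p = 0.289) per the authors' deposited table. TONSL (-0.20, adjusted p = 0.170) became a call once the GC and length trend was taken out (-0.27, adjusted p = 0.0270).

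S-phase genes lay on the lower side. Of 29 measured genes of DNA replication and the entry into S phase, 26 lay below 0, with a median of -0.16. Among all genes 8278 of 16617 lay below 0, with a median of 0.0014. At an unadjusted p under 0.05, 10 of the 29 were lower and 0 higher, against 4.8% and 7.65% of all genes. By adjusted p, 3 were called lower and 0 higher per the authors' deposited table, against 1.08% and 2.73% of all genes. The 3 were the replicative helicase subunits MCM6 (-0.33) and MCM2 (-0.27) and the ribonucleotide reductase subunit RRM1 (-0.27) per the authors' deposited table. Once the GC and length trend was taken out, MCM6 and MCM2 were still called (adjusted p = 0.0189 and 0.000411), RRM1 (adjusted p = 0.0506) was not, and MCM3 (-0.28, adjusted p = 0.0331) and E2F1 (-0.35, adjusted p = 0.0460) became calls. Their part in the histone values was not tested. Of 9 measured variant histone genes outside the rule 0 were called per the authors' deposited table, against 3.8% of all genes. At an unadjusted p under 0.05, 1 of the 9 was higher, against 7.65% of all genes. It was H2AFB2, listed at 0 in sgControl and averaging 3 reads in sgMETTL13. H2AFX, which encodes the H2A variant phosphorylated at DNA breaks, was the most abundant of those 9 at 398 TPM in sgControl and 410 TPM in sgMETTL13 (log2 fold change 0.12, implied 95% interval -0.039 to 0.27, adjusted p = 0.669) per the authors' deposited table. CENPA, the centromeric H3, was at -0.042 from 89.67 reads in sgControl per the authors' deposited table.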

How the data were processed

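RNA from 6 T3M4 libraries (3 sgControl, 3 sgMETTL13) was extracted with TRIzol, per the labels' protocols. The builds GRCh38.p12 and hg38 and the tools RSEM 1.2.12, Bowtie2 2.2.5, HISAT2 2.0.4 and an unversioned DESeq2 are named in the submitters' processing notes; which did what was not given in the sources used here. As for the values, the authors deposited 1 table of group averages, with TPM, FPKM and estimated counts of reads per gene, and also a log2 fold change, p-value and q-value, per the file headers. The deposited q-value, which differs by at most 1.20% from a recomputed Benjamini-Hochberg value, is called the adjusted p. A count model needs values per library, so the authors' own comparison is the result, as planned. The deposited log2 fold change lies above the log2 ratio of average counts by 0.0516 and above that of average TPM by 0.0734 (medians of genes at or above 205 reads).

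The implied standard error is the deposited log2 fold change over the normal quantile of its p-value; single libraries have no depth here, and intervals assume a normal test. Trends were fitted with splines of 4 degrees of freedom (patsy 1.0.2) in GC content and length of the longest GENCODE 29 transcript, for 16211 genes, 69 members included; the fit also centres the values. The code (matplotlib 3.10.9, scipy 1.17.1, pandas 2.3.3 and numpy 2.4.6 under Python 3.11.15) was tested on simulated data. Members, gene lists and alternatives were chosen with earlier results of these data known. In the S-phase list, 1 gene is not reported here and was left out of its counts. The genes named are all called members, the 8 variant genes, the 15 replication-dependent members with the most reads, the most abundant of each class, those with over 100 reads or an unadjusted p under 0.05, and METTL13; from each other list called genes and up to 4 with the smallest p. Further genes (HIST1H1D, HIST1H1E, HIST1H1B, HIST1H1A, HIST1H1T, HIST2H2AC, HIST1H2BG, HIST1H2BF, HIST1H4J, HIST3H2BB, HIST1H4B, HIST1H4A, HIST2H3PS2, SLBP, NPAT, MCM3, E2F1, CENPA and cell type markers) were named to complete a count, pair or role after their values were seen. HIST2H3A, HIST2H3C and HIST1H2AJ were likewise named once their values were seen.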

Additional observations from a re-analysis of the deposited data

How the results depend on the processing

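No paired analysis was possible because the table holds group averages, so neither a replicate block nor the removal of single libraries could be run. Of the 6 members called higher, 2 (HIST1H1C and H1FX) passed a threshold of 0.01, which leaves 1 replication-dependent call. After removal of the GC and length trend the calls were 0 higher, 0 replication-dependent and 0 variant, and likewise 0 with the length implied by the deposited values, an alternative added after the data were seen. HIST1H2BK then went to -0.027 with the annotated length and stayed above 0, at 0.019, with the implied length. The other settings (a threshold of 0.1, a recomputed adjustment, abundant genes only, identical rows counted once) left 5 or 6 members called higher. The median of the replication-dependent genes fell from 0.27 to 0.16 on the TPM ratio with a pseudocount of 1, and lay between 0.19 and 0.34 in the other settings. That of the variant genes turned to -6.76e-05 and -6.17e-05 on the TPM ratio with pseudocounts of 0.1 and 1. The summed variant level turned from 0.948 to 1.00045 without H3F3A. The cause of these shifts was not tested. Below 10 reads, where 31 members lie, a change of the size seen in HIST1H1C was not detectable at this depth.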
